A study of Homo sapiens with 5 samples.

Results

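The cytokine, chemokine and interleukin genes described here are 102 of the 14812 genes with a named probe set on whole-transcript arrays of LNCaP cells, an androgen-sensitive human prostate cancer line. They were taken by symbol, as genes beginning with CXCL, CXCR, CCL or CCR plus a digit, IL plus a digit, TNFSF or TNFRSF, away from chromosome 21. Of 108 symbols with these beginnings, 6 were left out, namely 1 pseudogene, 1 transcript on chromosome 21 and 4 antisense or divergent noncoding RNAs. No TNFSF or TNFRSF gene remained as a member, so that family was not analysed here. The members were 63 genes of ligands, antagonists and binding proteins, 35 receptor genes and 4 with other roles or none shared with these. CCL15-CCL14, annotated as a noncoding RNA that overlaps CCL14 and CCL15, was kept and counted among the ligands as a CC chemokine. The shControl cells carried a scrambled retroviral hairpin RNA (2 arrays) and the shRB cells a retroviral hairpin against RB1 (3 arrays), both under puromycin selection. Cells of both groups received 10 Gy of ionizing radiation and RNA was taken 24 h later, so no unirradiated cells enter the comparison. Whether the arrays within a group stem from different cultures is not in the labels, so p-values here reflect only how far these samples spread, and that spread may be technical. In bulk RNA, fewer cells expressing a gene and less RNA per cell cannot be told apart.

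Chemokines are small secreted proteins that guide migrating cells through seven-helix receptors, the CXC chemokines through CXCR receptors and the CC chemokines through CCR receptors. Interleukins signal through receptor chains that recruit JAK kinases and STAT factors, or, for the interleukin-1 and interleukin-17 families, adaptors that lead to NF-kappaB. In prostate epithelium and its tumours these genes are best known for the recruitment of leukocytes, and many are known to be induced in irradiated or senescent cells.

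RB1, which encodes the retinoblastoma protein and is the target of the hairpin, had log2 intensities of 5.81 and 5.70 on the shControl arrays and 5.16, 5.28 and 5.20 on the shRB arrays. The groups did not overlap, shRB being the lower, and the difference was -0.54 (SE 0.14). It did not pass the test over all genes (limma, adjusted p = 0.0967). Luminal prostate markers were measured for 8 of 17 listed genes, of which 7 reached the median gene (5.25). Mean log2 intensities were 10.1 for KLK3, 9.24 for KLK2 and 9.62 for FOLH1, and the lowest of the 8 was 4.83. Across all genes the 2 shControl arrays correlated at r = 0.966 and the shRB arrays at 0.983 to 0.986, with 0.955 to 0.970 between the groups. Across the members r was 0.828 within shControl, 0.914 to 0.940 within shRB and 0.813 to 0.867 between groups, so the shControl arrays were no more alike than arrays of different groups. The array medians lay between 26.6 and 28.1 on the deposited intensity scale. The number of arrays limits the precision.

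Most of these genes gave little signal in either group. The deposited intensities do not go below 16, a log2 value of 4, and the median of the 102 members over all arrays was 4.67, against 5.25 for the median gene. Only 18 of 102 members (17.6%) reached the median gene. On each array between 30 and 41 members lay within 0.5 log2 units of the floor. Intensities of different probe sets depend on their probes as well as on the transcript, so they show here which members have signal to compare and not which transcript is more abundant.

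**Figure D1:**
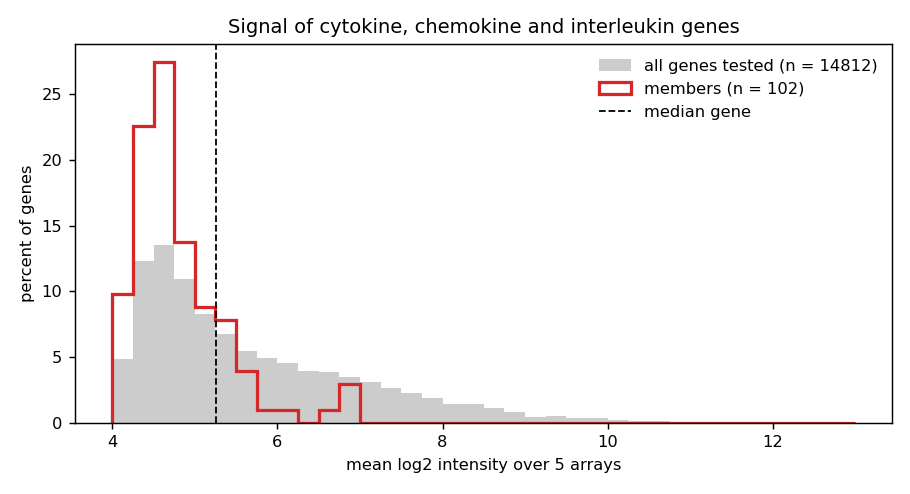
Share of genes (percent) in bins of mean log2 intensity over the 5 arrays, for all 14812 genes tested (grey) and the 102 members (red outline); the dashed line is the median gene. Most members lie left of the line, and the highest reaches 6.98.

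Between shRB and shControl cells, none of the 102 members passed (limma, two-sided, Benjamini-Hochberg over 14812 genes, threshold 0.05). Over all genes 159 passed, which is 1.07%, or 0.695% higher and 0.378% lower in shRB, so a list of this length would hold few calls at the background rate. At an unadjusted p under 0.05 there were 17 members (16.7%), against 18.1% of all genes. Of those members, more were lower (11) than higher (6), while among all genes more were higher (10.9%) than lower (7.22%). Arrays of the groups did not overlap for 34 members (33.3%), 17 in each direction, against 36% of all genes, 20.6% higher and 15.4% lower. Taken over both directions, the 2 shares lay close to the background, and the split by direction was not tested. Positive differences numbered 58 and negative ones 44, and the median difference was 0.04, against 0.02 over all genes. No member differed by over 1 on the log2 scale, and the 95% interval of 101 members lay within 1 on both sides. Members below the median gene numbered 84, of which 12 (14.3%) had an unadjusted p under 0.05 and 27 (32.1%) did not overlap, against 12.9% and 28.7% of all genes below it (0.446% passed). Of the 18 members at or above it, 5 (27.8%) had an unadjusted p under 0.05 and 7 (38.9%) did not overlap, against 23.3% and 43.3% (1.7% passed). IL1RAPL1 was the exception to the limit of 1, with an interval of 0.36 to 1.04. These intervals are on the deposited scale, where the floor compresses the folds of dim genes.

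**Figure D2:**
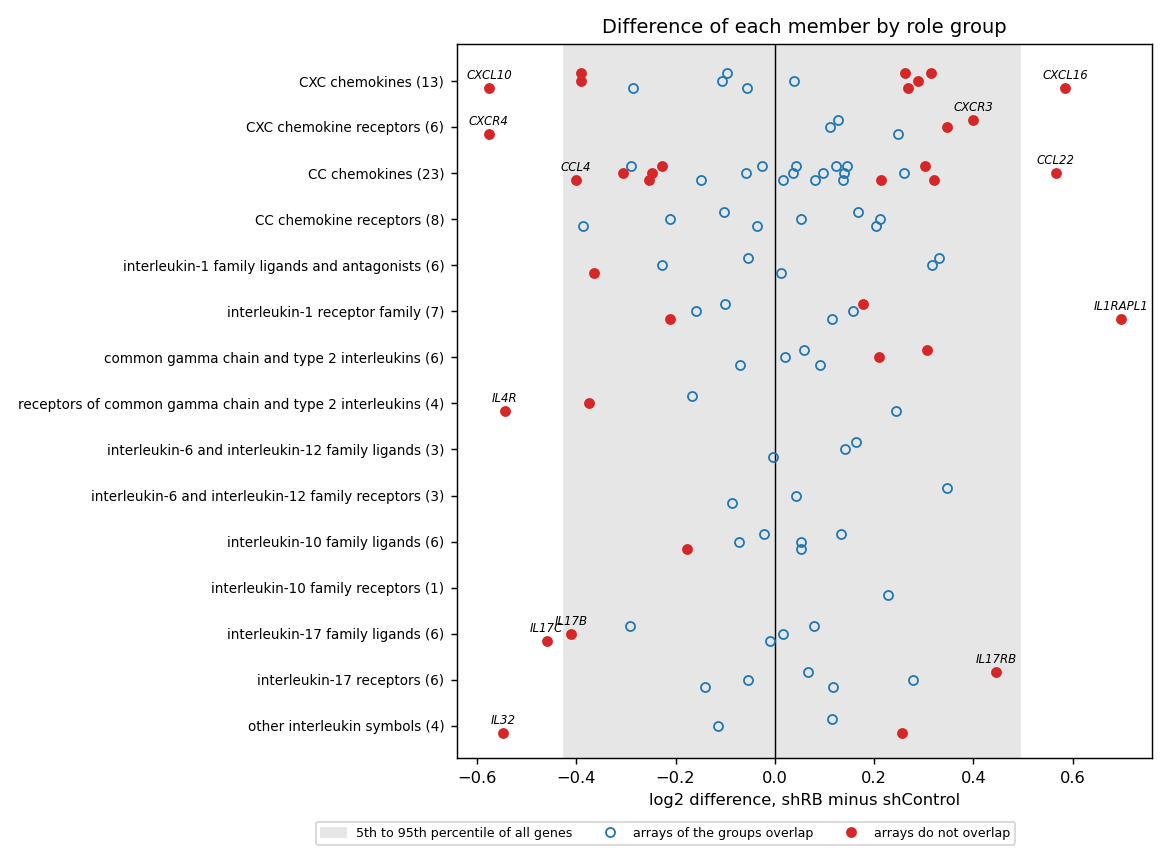
Log2 difference (shRB minus shControl) of each of the 102 members, 1 point per gene in rows by role group, with the number of members in parentheses. Filled points mark genes whose arrays do not overlap between groups, and the grey band spans the 5th to 95th percentile of all genes (-0.42 to 0.49); 8 members lie outside it.

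The 7 members that differed by over 0.5 were a mixture of ligands and receptors, 3 higher and 4 lower in shRB. IL1RAPL1, an interleukin-1 receptor family protein known for its role at neuronal synapses, had log2 intensities of 5.48 and 5.22 in shControl and 6.11, 6.09 and 5.94 in shRB. All shRB arrays lay above both shControl arrays, and the difference of 0.70 (SE 0.15) was the largest among the members (limma, adjusted p = 0.0619). It was 1.62-fold as deposited and 2.01-fold with the apparent constant of 16 taken off. IL1RAPL1 passed with genes below the median gene left out (adjusted p = 0.0258), with an intensity trend and robust variances (0.0415), and its adjusted p ranged from 0.0258 to 0.230 over the alternatives. Without shControl replicate 1 it was 0.0384 and without replicate 2 it was 0.114. In such fits the single control array left has no spread of its own and is assumed to vary like the shRB arrays, here and wherever a control array is left out below.

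CXCL16, a membrane-anchored chemokine that binds CXCR6, stood at 6.72 and 6.29 in shControl and at 7.20, 6.90 and 7.16 in shRB. The groups did not overlap, but the lowest shRB array lay only a little above shControl replicate 1. The difference was 0.59 (SE 0.18, adjusted p = 0.121), or 1.59-fold with the constant taken off. Against shControl replicate 2 alone the difference was 0.80 (adjusted p = 0.048) and against replicate 1 alone 0.37 (adjusted p = 0.285). MED11, which overlaps CXCL16 in the RefSeq annotation, differed by 0.22 (adjusted p = 0.463). CCL22, a ligand of CCR4, had 4.51 and 4.29 in shControl and 5.20, 5.06 and 4.64 in shRB, a difference of 0.57 (SE 0.18, adjusted p = 0.149). Its arrays did not overlap, though shRB replicate 3 lay nearer to the shControl arrays than to the other shRB arrays.

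CXCR4, the receptor of CXCL12, had 5.13 and 5.33 in shControl and 4.74, 4.64 and 4.57 in shRB. Its difference of -0.58 (SE 0.15, adjusted p = 0.0945) was the most negative of the members, 1.49-fold lower as deposited and 2.36-fold with the constant taken off. CXCL10, an interferon-induced ligand of CXCR3, had 5.34 and 5.08 in shControl and 4.53, 4.70 and 4.68 in shRB, a difference of -0.57 (SE 0.15, adjusted p = 0.0967). IL4R, the chain shared by the interleukin-4 and interleukin-13 receptors, had 5.54 and 5.56 in shControl and 5.08, 4.98 and 4.96 in shRB. All 3 genes were lower on each shRB array than on either control, and for IL4R both sets of arrays were tight (SD 0.02, n = 2, and 0.06, n = 3). The IL4R difference was -0.54 (SE 0.14, adjusted p = 0.0958), 1.91-fold lower with the constant taken off. IL32, a proinflammatory cytokine, had 6.08 and 5.52 in shControl and 5.39, 5.26 and 5.11 in shRB (difference -0.55, SE 0.19, adjusted p = 0.161). The distance between its shControl arrays, 0.56, was as large as the difference between the groups, and the value rested on which control was used: -0.83 against replicate 1 alone (adjusted p = 0.0496) and -0.27 against replicate 2 alone (adjusted p = 0.396). At a threshold of 0.10, IL1RAPL1, CXCR4, IL4R and CXCL10 would pass, 1 higher and 3 lower. Of all 14812 genes, 350 would pass as higher and 167 as lower at that threshold.

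**Figure D3:**
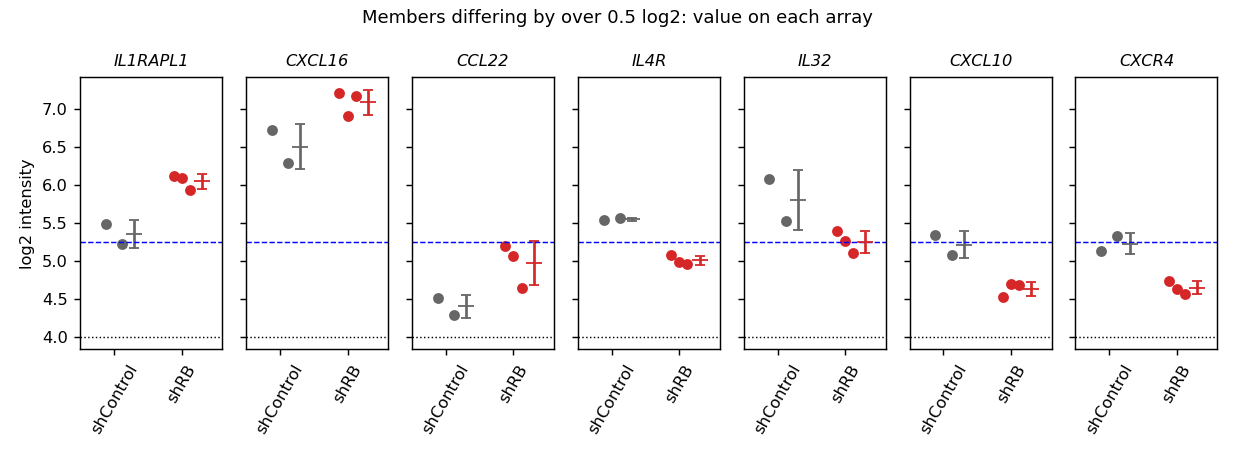
Log2 intensity on each array (points) of the 7 members that differed by over 0.5, with the group mean and SD beside them (shControl grey, n = 2; shRB red, n = 3). The dotted line is the floor at 4 and the dashed line the median gene; CXCL16 alone lies well above the dashed line in both groups, while CXCL10, CXCR4 and IL4R cross or reach below it.

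Among the 13 CXC chemokines 6 differences were positive and 7 negative (median -0.06), none passed, and 8 (61.5%) had arrays that did not overlap, against 36% of all genes. The neutrophil-attracting chemokines, which bind CXCR1 and CXCR2, did not move 1 way. CXCL3 stood at 4.31 and 4.15 in shControl and 4.63, 4.46 and 4.47 in shRB, CXCL5 at 4.28 and 4.40 against 4.52, 4.63 and 4.66, and CXCL6 at the floor and 4.09 against 4.35, 4.21 and 4.36. In all 3 the shRB arrays lay higher, by 0.29, 0.27 and 0.26 (adjusted p = 0.335, 0.36 and 0.371), close to the floor in both groups. CXCL8 (interleukin-8) lay the other way, at 4.56 and 4.96 in shControl and 4.23, 4.51 and 4.38 in shRB (difference -0.39, adjusted p = 0.257). CXCL2 overlapped between the groups (-0.11, adjusted p = 0.762).

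The starts of 4 of these chemokine genes and of IL32 are shown for a shared kind of NF-kappaB sequence (GGGA, any base, then TTTCC). Their differences, none of which passed, lay on both sides of 0. In RefSeq windows of 300 bases (250 before to 50 after the gene start, GRCh38.p14), 77 of 102 members had a sequence, and 5 of them (6.49%) held this motif on either strand, against 0.579% of 27305 promoters. Capitals mark the match, 5' to 3' along the gene. The windows are chr4:74099146-74099445 (minus strand), chr4:74038640-74038939 (minus), chr4:73998628-73998927 (minus), chr4:73836428-73836727 (plus) and chr16:3065153-3065452 (plus).
CXCL2: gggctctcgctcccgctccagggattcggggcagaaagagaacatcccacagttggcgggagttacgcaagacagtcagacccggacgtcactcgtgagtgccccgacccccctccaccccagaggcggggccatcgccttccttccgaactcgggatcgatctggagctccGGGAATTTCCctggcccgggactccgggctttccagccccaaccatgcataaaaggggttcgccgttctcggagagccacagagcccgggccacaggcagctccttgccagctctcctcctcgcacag
CXCL3: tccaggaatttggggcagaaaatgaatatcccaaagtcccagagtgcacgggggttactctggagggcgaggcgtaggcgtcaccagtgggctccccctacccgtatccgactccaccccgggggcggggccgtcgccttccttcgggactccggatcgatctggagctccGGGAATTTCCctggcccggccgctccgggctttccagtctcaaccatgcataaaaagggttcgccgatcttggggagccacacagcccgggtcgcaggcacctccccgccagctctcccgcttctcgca
CXCL5: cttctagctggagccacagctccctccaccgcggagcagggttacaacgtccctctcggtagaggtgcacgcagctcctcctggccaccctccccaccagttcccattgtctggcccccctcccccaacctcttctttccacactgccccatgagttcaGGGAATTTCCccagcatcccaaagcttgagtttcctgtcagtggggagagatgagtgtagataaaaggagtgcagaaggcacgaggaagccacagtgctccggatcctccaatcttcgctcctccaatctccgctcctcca
CXCL6: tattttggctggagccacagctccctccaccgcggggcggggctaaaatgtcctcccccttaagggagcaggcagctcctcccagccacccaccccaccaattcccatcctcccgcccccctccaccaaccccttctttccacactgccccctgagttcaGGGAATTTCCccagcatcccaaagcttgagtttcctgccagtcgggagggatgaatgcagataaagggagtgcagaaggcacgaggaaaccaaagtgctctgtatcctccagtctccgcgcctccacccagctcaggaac
IL32: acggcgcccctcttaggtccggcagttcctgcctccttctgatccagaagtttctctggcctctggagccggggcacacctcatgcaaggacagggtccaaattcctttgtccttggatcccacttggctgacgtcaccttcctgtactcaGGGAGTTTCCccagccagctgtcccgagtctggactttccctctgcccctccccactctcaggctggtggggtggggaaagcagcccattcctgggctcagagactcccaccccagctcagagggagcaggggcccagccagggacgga
The matching letters are GGGAATTTCC in the 4 chemokine genes and GGGAGTTTCC in IL32, starting at -78, -79, -91, -90 and -99 relative to the gene start in the order shown. The differences of these 5 genes were -0.11, 0.29, 0.27, 0.26 and -0.55 in the same order, so genes sharing the motif lay on both sides of 0. A match of letters is a description and not evidence of binding. No other NF-kappaB pattern was searched, so windows without a match are not shown to lack such sites.

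The chemokines that bind CXCR3 are known interferon-induced genes that lie close together on chromosome 4. CXCL10 was lower on all shRB arrays as given above, while CXCL9 (log2 difference -0.10, adjusted p = 0.772) and CXCL11 (0.04, adjusted p = 0.93) overlapped between groups. The windows of CXCL9 (chr4:76007460-76007759, minus strand) and CXCL10 (chr4:76023448-76023747, minus strand) are shown with the interferon response pattern in capitals (TTTC, any 2 bases, then TTTC; here on the opposite strand in both).
CXCL9: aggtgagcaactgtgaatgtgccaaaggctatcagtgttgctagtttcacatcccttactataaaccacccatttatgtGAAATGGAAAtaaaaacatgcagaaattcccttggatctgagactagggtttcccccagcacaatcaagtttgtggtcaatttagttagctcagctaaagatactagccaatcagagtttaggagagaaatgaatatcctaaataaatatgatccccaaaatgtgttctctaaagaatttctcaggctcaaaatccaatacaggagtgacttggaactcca
CXCL10: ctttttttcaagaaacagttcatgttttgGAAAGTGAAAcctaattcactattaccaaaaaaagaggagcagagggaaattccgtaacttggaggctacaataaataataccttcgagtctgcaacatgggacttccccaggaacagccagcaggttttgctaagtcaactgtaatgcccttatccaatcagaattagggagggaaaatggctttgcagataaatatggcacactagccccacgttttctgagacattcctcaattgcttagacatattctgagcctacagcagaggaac
The match starts at -171 in CXCL9 (GAAATGGAAA) and at -221 in CXCL10 (GAAAGTGAAA). This motif was in 7 of the 77 member windows (9.09%), against 3.65% of all promoters. The AP-1 letters TGANTCA were in 15 (19.5%, against 7.76%), among them CXCL8, CXCL14, IL1RN and IL6R. The E2F letters TTTCGCGC, TTTGGCGC or TTTCCCGC were in 1, CXCL17 (1.30%, against 2.79%). All motifs were searched on both strands, and no matches overlapped in the windows shown.

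Of the other CXC chemokines, CXCL14 had 5.51 and 5.15 in shControl and 5.01, 4.89 and 4.91 in shRB (difference -0.39, SE 0.16, adjusted p = 0.227). CXCL17, a mucosal chemokine, stood 0.31 higher (adjusted p = 0.284), with arrays that did not overlap. CXCL12, the ligand of CXCR4, differed by -0.29 (adjusted p = 0.376) and CXCL13 by -0.06, both with overlapping arrays. Among the 6 CXC receptors CXCR4 alone was negative. CXCR3 stood at 4.03 and 4.06 in shControl and at 4.45, 4.60 and 4.28 in shRB (0.40, SE 0.15, adjusted p = 0.208), and CXCR1 at 4.23 and 4.10 against 4.67, 4.41 and 4.45 (0.35, adjusted p = 0.261). Their shControl arrays lay nearly at the floor, so the size is not known: for CXCR3 it was 1.32-fold as deposited and 11.4-fold with the constant taken off. CXCR6 (0.25), CXCR5 (0.13) and CXCR2 (0.11) overlapped.

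The 23 CC chemokines had 14 positive and 9 negative differences (median 0.04) and none passed. Besides CCL22, CCL4 had an unadjusted p under 0.05, at 4.40 and 4.54 in shControl and 4.12, 4.09 and the floor in shRB (-0.40, SE 0.15, adjusted p = 0.185). CCL2, CCL7 and CCL8, monocyte-attracting chemokines, and CCL3 were lower on every shRB array. Their differences were 0.23, 0.31, 0.25 and 0.25 in size (limma, adjusted p from 0.307 to 0.454). For CCL3 the shControl arrays lay 0.38 apart, further than the groups did. Its shControl replicate 2 stood barely above shRB replicate 2 (both 4.27). CCL1, CCL25, a thymic and intestinal chemokine, and CCL28, a mucosal chemokine, were higher on every shRB array, by 0.21, 0.32 and 0.30. The arrays of the other 14 CC chemokines overlapped, with differences from -0.29 (CCL19) to 0.26 (CCL24). CCL3L1 (0.04) has near-identical gene copies, so its signal may not be its own. Arrays did not overlap for 9 of the 23 CC chemokines (39.1%) and for none of the 8 CC receptors, against 36% of all genes. CCR10, the receptor of CCL27 and CCL28, had 5.35 and 6.55 in shControl and 5.61, 5.63 and 5.45 in shRB. Its difference of -0.39 (SE 0.27, adjusted p = 0.49) had no settled direction, being -0.99 against shControl replicate 2 alone (adjusted p = 0.0234) and 0.22 against replicate 1 alone (adjusted p = 0.5001). The other 7 receptors differed by -0.21 (CCR1) to 0.21 (CCR7).

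The interleukin-1 family held the member with the highest mean log2 intensity, IL1RN, which encodes the interleukin-1 receptor antagonist. It stood at 7.47 and 6.76 in shControl and at 6.46, 7.02 and 7.19 in shRB, so the groups overlapped (difference -0.23, SE 0.24, adjusted p = 0.665). IL33, an alarmin that binds IL1RL1, had 4.95 and 4.72 in shControl and 4.45, 4.44 and 4.51 in shRB (-0.36, SE 0.15, adjusted p = 0.228), with no overlap. IL18BP, the soluble inhibitor of interleukin-18, differed by 0.33 (adjusted p = 0.363) and IL37, an anti-inflammatory member, by 0.32 (adjusted p = 0.441), both overlapping. IL37 differed by 0.0093 from shControl replicate 2 alone and by 0.62 from replicate 1 alone, and IL18BP by 0.15 and 0.51. IL18 (0.01) and the antagonist IL36RN (-0.05) differed little. Of the 7 genes of the receptor family, IL1RAPL1 aside, IL1RL1 was a little higher on every shRB array (0.18, adjusted p = 0.557) and the co-receptor IL1RAP a little lower (-0.21, adjusted p = 0.504). IL18R1 (0.16), IL1RAPL2 (0.11), IL1RL2 (-0.10) and IL18RAP (-0.16) overlapped.

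The interleukins of the common gamma chain and type 2 group lay near the floor, at mean log2 intensities from 4.22 (IL21) to 4.94 (IL7). IL21, a T cell cytokine, and IL7, a lymphocyte growth factor, were higher on every shRB array (0.31 and 0.21, adjusted p = 0.326 and 0.494). IL2 (0.02), IL4 (0.09), IL13 (-0.07) and IL15 (0.06) overlapped. Of their receptors, IL9R was lower on every shRB array, like IL4R (5.85 and 5.45 against 5.32, 5.39 and 5.12; -0.37, adjusted p = 0.272). IL9R has near-identical pseudogene copies, so its signal may be shared. IL7R (-0.17) and IL21R (0.24) overlapped. IL6R, the ligand-binding chain of the interleukin-6 receptor, had 6.22 and 5.52 in shControl and 6.51, 6.21 and 5.94 in shRB. Its difference of 0.35 (SE 0.22, adjusted p = 0.445) was smaller than the 0.70 between the shControl arrays. The 5 others of the interleukin-6 and interleukin-12 families differed by -0.09 (IL23R) to 0.16 (IL11), with all groups overlapping. The 6 interleukin-10 family ligands differed by -0.18 (IL26) to 0.13 (IL22), and the receptor chain IL20RB by 0.23 (adjusted p = 0.614).

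In the interleukin-17 family, which is known for epithelial defence, 2 of 6 ligands and 1 of 6 receptors had an unadjusted p under 0.05, against 18.1% of all genes. IL17C, an epithelial cytokine, had 4.85 and 5.10 in shControl and 4.38, 4.58 and 4.60 in shRB (-0.46, SE 0.16, adjusted p = 0.162). IL17B had 5.13 and 5.09 in shControl and 4.91, 4.62 and 4.58 in shRB (-0.41, SE 0.16, adjusted p = 0.206). IL17RB, the receptor of IL17B and IL25, had 5.20 and 5.33 in shControl and 5.83, 5.61 and 5.69 in shRB (0.45, SE 0.15, adjusted p = 0.159). IL17B was thus lower and its receptor IL17RB higher on every shRB array, IL17C was lower too, and none passed. The receptor paired with IL17C, IL17RE, differed by 0.07, and IL25, the other ligand of IL17RB, by 0.02. IL17RA, the common receptor chain, had 6.73 and 6.52 in shControl and 6.64, 6.32 and 6.74 in shRB, with a difference of -0.05 (95% interval -0.43 to 0.32). IL17D stood at 5.15 and 6.11 in shControl and 5.23, 5.51 and 5.27 in shRB (-0.29, adjusted p = 0.557). Its direction also turned with the control used, from -0.77 against replicate 2 alone (adjusted p = 0.0498) to 0.19 against replicate 1 alone (adjusted p = 0.584). IL17A, IL17F, IL25, IL17RC, IL17RD, IL17RE and IL17REL overlapped, at -0.14 (IL17RC) to 0.28 (IL17RD). IL4I1, an amino acid oxidase and not a cytokine, had 6.75 and 6.73 in shControl and 6.88, 6.95 and 7.17 in shRB (0.26, SE 0.15, adjusted p = 0.405), in a locus that overlaps NUP62 and ATF5. IL16, a ligand of CD4, differed by 0.12 and IL34, a ligand of the receptor CSF1R, by -0.11, both overlapping.

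Known ligands and receptors were set side by side for 35 pairs that share 23 receptors. In 18 pairs both differences had the same sign and in 17 they had opposite signs, and in 0 pairs did both genes reach the median gene. CXCL12 and CXCR4 were both negative (-0.29 and -0.58), and CXCL16 and CXCR6 both positive (0.59 and 0.25). CXCL10 and CXCR3 lay on opposite sides (-0.57 and 0.40), as did IL17B and IL17RB (-0.41 and 0.45) and IL33 and IL1RL1 (-0.36 and 0.18). Neighbouring genes also lay on both sides of 0. In the order of the RefSeq annotation along chromosome 17, CCL2, CCL7, CCL11, CCL8 and CCL1 differed by -0.23, -0.31, 0.10, -0.25 and 0.21. On chromosome 2, IL1RL2, IL1RL1, IL18R1 and IL18RAP differed by -0.10, 0.18, 0.16 and -0.16. IL4R and its neighbour IL21R on chromosome 16 stood at -0.54 and 0.24.

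The spread between the 2 shControl arrays limited what could be seen. For 59 of 102 members (57.8%) they lay further apart than the 2 groups did, as for 56.3% of all genes. The median distance between them was 0.25 for the members, and 58 members were higher on replicate 2 and 44 on replicate 1. The median range of the 3 shRB arrays was 0.26. Without shControl replicate 1 the sign of 17 members turned, and without replicate 2 that of 24. Without shRB replicates 1, 2 and 3 it turned for 6, 12 and 9. For the same deviation, leaving out 1 of 2 arrays moves a group mean more than leaving out 1 of 3. These counts therefore do not compare the spread of the groups. CCR10 (1.20), IL17D (0.96) and IL18R1 (0.83) had the largest distances. For IL1RAPL1 (0.26), CXCR4 (0.20), CXCL10 (0.25), CCL22 (0.21) and IL4R (0.03) the control distance was smaller than the group difference.

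**Figure D4:**
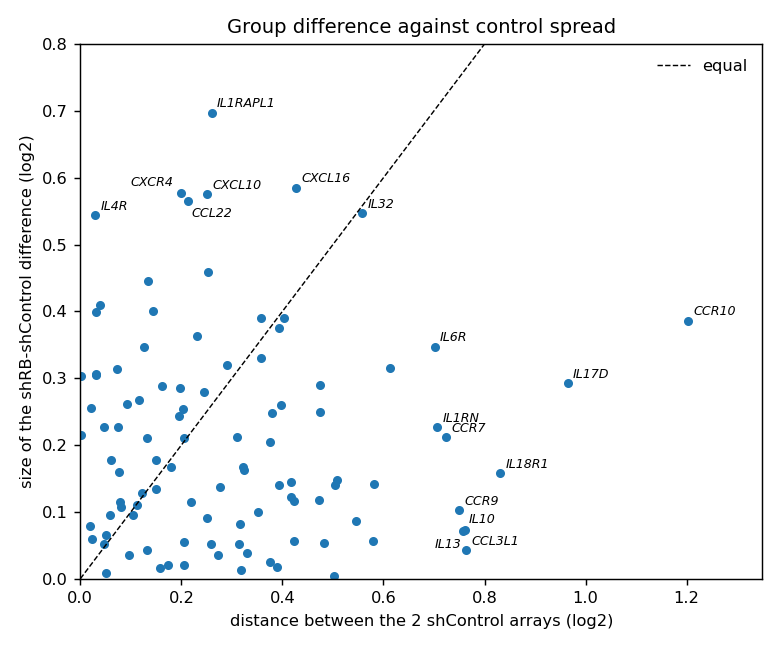
Size of the difference between shRB and shControl (vertical, log2) against the distance between the 2 shControl arrays (horizontal, log2), 1 point per member; the dashed line marks equal values. The 59 members below the line have controls that lie further apart than the groups do, with CCR10 at 1.20 as the widest.

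Other cytokine genes and the signalling chain were followed in lists that do not depend on the symbol rule. Of 82 listed cytokines and receptors under other symbols, 53 were measured and none passed, with 11 (20.8%) at an unadjusted p under 0.05 against 18.1% of all genes, 32 positive and 21 negative differences and a median of 0.09. The chemokine-like membrane proteins CMTM8 (0.89, SE 0.20, adjusted p = 0.0578) and CMTM7 (0.67, SE 0.17, adjusted p = 0.0929) and the TNF family ligand EDA (0.52, SE 0.14, adjusted p = 0.103) were higher on every shRB array. LIF, an interleukin-6 family cytokine, had 4.79 and 5.53 in shControl and 5.68, 5.82 and 5.73 in shRB (0.58, SE 0.20, adjusted p = 0.167). It stood 0.21 above shControl replicate 2 alone (adjusted p = 0.473) and 0.96 above replicate 1 alone (adjusted p = 0.028). CMTM8 passed with array medians subtracted (adjusted p = 0.0348), with genes below the median gene left out (0.0222) and with the intensity trend (0.0200), and CMTM7 against shControl replicate 1 alone (0.0469).

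Of 80 listed genes of JAK-STAT and NF-kappaB signalling, 53 were measured and 2 passed, both higher. Over all genes 1.07% passed in either direction. In the list 12 had an unadjusted p under 0.05 (22.6%, against 18.1% of all genes). SOCS3, a feedback inhibitor of cytokine receptors that use JAK kinases, rose by 0.99 (SE 0.14, adjusted p = 0.0101), from 5.04 and 5.16 in shControl to 6.09, 6.14 and 6.05 in shRB. Its other probe set gave -0.30, so the call rests on 1 of 2 probe sets that disagree. TAB3, an adaptor of the kinase TAK1, rose by 1.17 (SE 0.22, adjusted p = 0.0336), from 6.14 and 6.20 to 7.13, 7.05 and 7.84, and its other probe set gave 0.36. With the probe sets averaged, neither passed (adjusted p = 0.329 and 0.0559). Leaving out an shRB array, whichever it was, ended both calls (adjusted p = 0.0911 to 0.0979 for SOCS3 and 0.0911 to 0.137 for TAB3), as did removal of the constant (0.0886 and 0.157). The differences stayed at 0.97 to 1.01 for SOCS3 and 0.92 to 1.32 for TAB3 without an shRB array, and were 1.34 and 1.32 with the constant removed. TAB3 also missed the threshold without either shControl array (0.0533 and 0.0615). JAK2, a receptor-bound kinase, had 5.19 and 5.01 in shControl and 5.61, 5.84 and 5.60 in shRB (0.59, SE 0.15, adjusted p = 0.0958). RELB, an NF-kappaB subunit, had 6.38 and 6.66 in shControl and 6.07, 5.73 and 5.88 in shRB (-0.63, SE 0.16, adjusted p = 0.0951). NFKB2 (-0.43, adjusted p = 0.161) and NFKB1 (-0.41, adjusted p = 0.247), named after their values were seen, were lower on every shRB array, and RELA differed by 0.11. JAK2 and RELB passed with genes below the median gene left out (adjusted p = 0.0473 and 0.0466).

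Of 35 listed adhesion and acute-phase genes known to respond to inflammatory cytokines, 22 were measured and 1 passed, against 1.07% of all genes. An unadjusted p under 0.05 (limma) was found for 4 (18.2%, against 18.1% of all genes). Arrays did not overlap for 7 (31.8%, against 36%), so these shares lay close to the background. PTGES, a prostaglandin E synthase, stood at 6.75 and 6.22 in shControl and at 5.06, 5.21 and 5.32 in shRB, with a log2 difference of -1.29 (SE 0.18, limma, adjusted p = 0.00857). The call ended when any shRB array was left out (adjusted p = 0.0744 to 0.0979) and with the constant removed (0.104), while the difference stayed at -1.35 to -1.22 and was -1.65, respectively. PTGS2, the cyclooxygenase upstream of it, had 5.23 and 5.84 in shControl and 4.64, 4.98 and 4.72 in shRB (-0.76, SE 0.20, adjusted p = 0.0935). It was -1.06 against shControl replicate 2 alone (adjusted p = 0.0241) and -0.45 against replicate 1 alone (adjusted p = 0.213), and it passed with the intensity trend (adjusted p = 0.0499). ICAM1 (-0.29), SAA1 (-0.30), LCN2 (-0.11) and C3 (0.10) did not pass. The 11 probe sets of IER3 gave differences of both signs, and FGA stood at -0.43 (adjusted p = 0.197).

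Markers of leukocytes, the usual source of many of these cytokines, were measured for 16 of 30 listed genes and none passed. Only LCP1 (9.63), an actin-bundling protein, and CD68 (6.97), a lysosomal protein, reached the median gene, while CD2, CD8A, CD14, PRF1 and TYROBP lay between 4.40 and 4.80. The summed leukocyte marker level was 10.5 and 10.6 on the shControl arrays and 10.1 to 10.3 on the shRB arrays (log2 of summed linear intensities). LCP1 (-0.50, adjusted p = 0.135) dominates that sum: without it the level was 8.84 and 9.08 in shControl and 8.92 to 8.95 in shRB, and the groups overlapped. The median difference of the 16 markers was -0.07, with 5 positive and 11 negative. Endothelial (8 of 12 measured), stromal (4 of 13) and basal epithelial (4 of 8) markers had no gene that passed. The part of these markers in the differences of the cytokine genes was not tested.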

How the data were processed

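Transcripts of 5 irradiated LNCaP samples were measured on single-colour arrays. The authors deposited 1 linear intensity for each probe set. How probes were summarised, background-corrected and normalized, and with which software, is not given in the sources used here. All intensities were at or above 16, which fits an added constant that compresses folds of dim genes. Of 44607 probe sets, 15835 carried 1 gene symbol in the platform annotation, 0 carried several, and 28772 had no name here. Entrez identifiers gave current RefSeq symbols (GRCh38.p14) for all 15835, and each of the 14812 genes was represented by its brightest probe set on average. Each member had 1 probe set. Groups came from the sample titles, and log2 intensities were tested by limma 3.58.1 (R 4.3.3) (lmFit, eBayes, group term only, no filter), with Benjamini-Hochberg adjustment over all genes. The test was tested on simulated data with 200 of 14812 genes changed. It called 22.4% of changes of 0.5, 98.4% of changes of 1 and 100% of changes of 2, so differences near 0.5 are mostly missed at this size. False calls averaged 10.65 per simulation. The simulated noise had equal variance in both groups. Changes were added on the deposited log2 scale, so the shares do not carry over to folds of dim genes, which that scale compresses.

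Members, lists and the rule for full values (the 10 largest differences in each direction, the 12 members with the highest intensity, up to 4 genes per list and those that passed) were chosen with earlier results of these data known. Whether same-numbered arrays of the groups are paired is not in the labels. Deviations of same-numbered arrays from their group means correlated at r = -0.02 and 0.05, and those of differently numbered arrays at -0.06 to 0.06. Deviations of the shControl arrays from their mean are mirror images of each other, so these values are not independent. They show no clear pairing and cannot exclude it. Alternatives were quantile normalization, median subtraction, removal of the constant, a filter on dim genes, averaged probe sets, array weights, robust variances with an intensity trend, a replicate block, every probe set tested, a threshold of 0.10 and leaving out each array.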

Additional observations from a re-analysis of the deposited data

How the results depend on the processing

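The count of 0 members called held with quantile normalization, subtraction of array medians, removal of the constant, averaged probe sets, array weights, the replicate block and every probe set tested. With genes below the median gene left out, and with the intensity trend, 1 member was called higher (IL1RAPL1 in both), and at a threshold of 0.10 the counts were 1 higher and 3 lower. Without 1 array the calls ranged from 0 to 2 higher and from 0 to 2 lower. The median difference of the members was 0.012 after quantile normalization, 0.028 with array medians subtracted, 0.081 with the constant removed, -0.0093 over the 18 members left by the dim filter and -0.0025 to 0.099 without 1 array. Over all genes, the counts of 103 higher and 56 lower became 137 and 90 with medians subtracted, 4 and 9 with the constant removed, 267 and 118 with dim genes left out, 260 and 166 with the trend, 52 and 36 with array weights, 8 and 16 with the replicate block and 350 and 167 at 0.10. Without 1 array they ranged from 8 to 235 higher and from 13 to 176 lower. With the replicate block SOCS3, TAB3 and PTGES missed the threshold (adjusted p = 0.0991, 0.137 and 0.0566). No shControl array has replicate number 3, so in this block shRB replicate 3 does not enter the difference. The differences with the block are therefore the same as with that array left out. RB1 stayed negative under every alternative (-0.74 to -0.49) and passed with dim genes left out (-0.54, adjusted p = 0.0489). Without 1 array the sign of 6 to 24 of the 102 members turned. Among those with full values these crossed 0: IL17RA (-0.16 to 0.070, and 0.048 without shControl replicate 1), IL17RC (-0.39 to 0.11), IL1RN (-0.58 to 0.13), CCR10 (-0.99 to 0.22), IL17D (-0.77 to 0.19) and IL6R (-0.0033 to 0.70). The cause of these crossings was not tested. These genes all lay above the median gene, at mean log2 intensities from 5.45 (IL17D) to 6.98 (IL1RN). Full values were given only to members with large differences or high intensity. Their brightness therefore does not show that crossings belong to bright genes. For most other members the signal near the floor limits what can be compared.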

Other observations

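Of the symbols left out by the rule, TNFRSF10A-DT, a noncoding RNA divergent from a TRAIL receptor gene, had log2 intensities of 5.94 and 5.58 in shControl and 6.21, 6.29 and 6.24 in shRB. Every shRB array lay above both shControl arrays, with a difference of 0.49 (SE 0.16, limma, adjusted p = 0.148) that did not pass. The antisense RNAs TNFRSF14-AS1 (0.10), IL21R-AS1 (0.12) and IL12B-AS1 (-0.11), the pseudogene CXCR2P1 (-0.19) and IL10RB-DT on chromosome 21 (-0.17) had groups that overlapped.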
